A study of Homo sapiens with 9 samples.

Results

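Expression of 10 genes that detect foreign or misplaced nucleic acid, or that pass the signal on, was followed in OVCAR4 cells, a human high-grade serous ovarian carcinoma line, after knockdown of MPZL3. They were chosen by name for their role, with earlier results of these data known: DDX58, DHX58, EIF2AK2, ADAR, TLR3, ZBP1, MAVS, MB21D1, TMEM173 and TBK1. Of these 10 genes, 9 stood under that symbol among the 58735 genes of the count table, and MB21D1 was found under its current symbol CGAS. Polyadenylated RNA was sequenced from 9 libraries in 3 groups of 3 replicates. All cells had been transduced with lentivirus and selected with puromycin. The scr control carried a scrambled shRNA, and shMPZL3 #1 and shMPZL3 #2 carried different shRNAs against MPZL3. The grouped knockdown joins the 6 libraries of both shRNAs, each shRNA being a single hairpin in a single cell line.

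Cells read RNA and DNA in the wrong place as a sign of infection or damage. In the cytosol, the helicases RIG-I (the product of DDX58), MDA5 (IFIH1) and LGP2 (DHX58) bind double-stranded RNA. RIG-I and MDA5 signal through MAVS on mitochondria, whereas TLR3 meets double-stranded RNA in endosomes. Cytosolic DNA is bound by cGAS (CGAS), whose product cGAMP activates STING (TMEM173). Both routes meet at the kinase TBK1, which phosphorylates IRF3 and leads to type I and type III interferon. Interferon in turn raises the RNA of many sensors through the interferon-stimulated response element (ISRE), a DNA motif bound by interferon regulatory factors.

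Promoter windows of 300 bases, from 250 bases before to 50 bases after the annotated start, were taken from RefSeq (GRCh38.p14) for the 6 members that the table holds: DDX58 (listed there as RIGI), EIF2AK2, ADAR, TLR3, MAVS and TBK1. DHX58, ZBP1, CGAS and TMEM173 had no entry. The windows were searched on both strands for the ISRE core GAAANNGAAA, which 3.57% of all 35116 windows held. Counted per gene, 4.38% of 27305 genes held it. Among the 6 members, EIF2AK2 and TLR3 held it, and both matches lay across the start site: from base -6 to 3 in EIF2AK2 and from base -4 to 5 in TLR3, where base 0 is the annotated start. The DDX58 window held no such core but held the same pair of blocks with 1 base between them (GAAANGAAA, in 3.12% of windows and 3.87% of genes). That spelling was added after the sequence had been read. The IFIH1 window held 3 cores, of which 2 overlap each other. ADAR (3 windows), MAVS and TBK1 held neither spelling. The 9-base gamma-activated site TTCNNNGAA, present in 7.66% of windows and 9.38% of genes, was found in TLR3 alone among these genes, at 2 positions. The windows of the 3 members whose knockdown libraries all lay above the controls are shown first, then that of IFIH1. They are written 5′ to 3′ on the gene's strand, with every ISRE core and 1-base-spacer match in capitals.
DDX58, chr9:32526147-32526446, minus strand: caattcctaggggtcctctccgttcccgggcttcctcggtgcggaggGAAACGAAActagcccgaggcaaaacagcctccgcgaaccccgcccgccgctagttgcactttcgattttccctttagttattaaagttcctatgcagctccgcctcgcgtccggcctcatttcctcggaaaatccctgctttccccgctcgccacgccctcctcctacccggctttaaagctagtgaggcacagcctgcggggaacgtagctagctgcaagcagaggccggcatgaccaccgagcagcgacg
EIF2AK2, chr2:37156931-37157230, minus strand: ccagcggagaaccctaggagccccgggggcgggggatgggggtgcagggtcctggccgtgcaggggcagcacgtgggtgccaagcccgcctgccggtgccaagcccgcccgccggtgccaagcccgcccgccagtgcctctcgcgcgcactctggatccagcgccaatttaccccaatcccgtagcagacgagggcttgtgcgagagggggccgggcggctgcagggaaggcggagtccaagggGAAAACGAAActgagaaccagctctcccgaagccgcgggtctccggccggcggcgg
TLR3, chr4:186068906-186069205, plus strand: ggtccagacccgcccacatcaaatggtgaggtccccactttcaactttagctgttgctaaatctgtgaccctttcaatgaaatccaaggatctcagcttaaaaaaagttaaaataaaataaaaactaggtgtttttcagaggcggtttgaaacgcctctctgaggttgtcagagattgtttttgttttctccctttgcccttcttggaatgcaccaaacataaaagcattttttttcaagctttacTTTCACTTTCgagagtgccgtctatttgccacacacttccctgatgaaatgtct
IFIH1, chr2:162318635-162318934, minus strand: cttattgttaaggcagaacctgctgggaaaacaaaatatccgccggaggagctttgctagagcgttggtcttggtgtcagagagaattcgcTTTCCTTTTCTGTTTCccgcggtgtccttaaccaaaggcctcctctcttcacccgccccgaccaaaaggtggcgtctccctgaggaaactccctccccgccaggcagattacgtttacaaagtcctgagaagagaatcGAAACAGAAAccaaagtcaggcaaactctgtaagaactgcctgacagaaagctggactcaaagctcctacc
A match is only a run of letters, and binding was not measured here.

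The libraries held 15040102 to 27835841 counts, with the controls at 15040102 to 21757321. MPZL3 fell in every knockdown library: normalized counts were 536, 611 and 587 in the scr control, 119, 143 and 123 in shMPZL3 #1, and 284, 380 and 271 in shMPZL3 #2. The normalized count is the deposited count scaled to the average library. The difference between both shRNAs was itself larger than the replicate spread (log2 1.28 higher in shMPZL3 #2, SE 0.16, edgeR quasi-likelihood adjusted p = 5.72e-05), so shMPZL3 #2 left more MPZL3 RNA. Of 8 ovarian carcinoma markers, 7 were measured well, among them PAX8, EPCAM and MUC16, and their summed level was 4699 to 5981 CPM (counts scaled to a fixed library total). The exception, WT1, had 3 to 13 counts. Summed levels of 6 leukocyte markers were 2.14 to 2.66 CPM in the scr control and 2.30 to 5.43 in the knockdown libraries, with CD3E, CD68 and NKG7 at no more than 4 counts in any library and ITGAM, at 3 to 46 counts, called higher (log2 2.01). Summed levels of 4 fibroblast markers were 14.3 to 17.2 CPM in the scr control, 34.6 to 53.3 in shMPZL3 #1 and 18.6 to 28.4 in shMPZL3 #2, with COL1A1 called higher in the grouped knockdown (log2 1.05), although DCN had 0 counts in all 9 libraries. Those of 3 endothelial markers were 8.09 to 9.87 CPM in the scr control, 7.31 to 8.80 in shMPZL3 #1 and 12.4 to 16.1 in shMPZL3 #2. The part of these markers in the results was not tested. In bulk RNA, fewer cells that express a gene and less RNA per cell cannot be told apart.

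The question was whether the sensing machinery itself moved when MPZL3 was knocked down. Of the 9 members that could be tested, 4 rose in the grouped knockdown and 0 fell: DDX58, DHX58, EIF2AK2 and TLR3, all of them RNA sensors (edgeR quasi-likelihood test, Benjamini-Hochberg adjusted p below 0.05 over 16928 genes, hereafter "called"). Over all genes, 9.36% were called higher and 6.4% lower. The adaptors MAVS and TMEM173, the DNA sensor CGAS, the editing enzyme ADAR and the kinase TBK1 were not called in the grouped comparison. At an unadjusted p below 0.05, 1 member was lower (TBK1), as with DESeq2, and 5 were higher. ZBP1 was too low to test. In 3 of the 9 members (DDX58, EIF2AK2 and TLR3) every knockdown library lay above every control library, as did 11.8% of all genes tested. The median log2 fold change of the 9 members was 0.33, beside 0.02 over all genes. Because the members were chosen with earlier results known, these comparisons with all genes describe the list and do not test it. Leaving out scr control replicate 1 left 2 members called, DDX58 and TLR3. Calls over all genes fell as well, from 1584 higher and 1083 lower to 453 and 172 of 17589 genes.

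**Figure D1:**
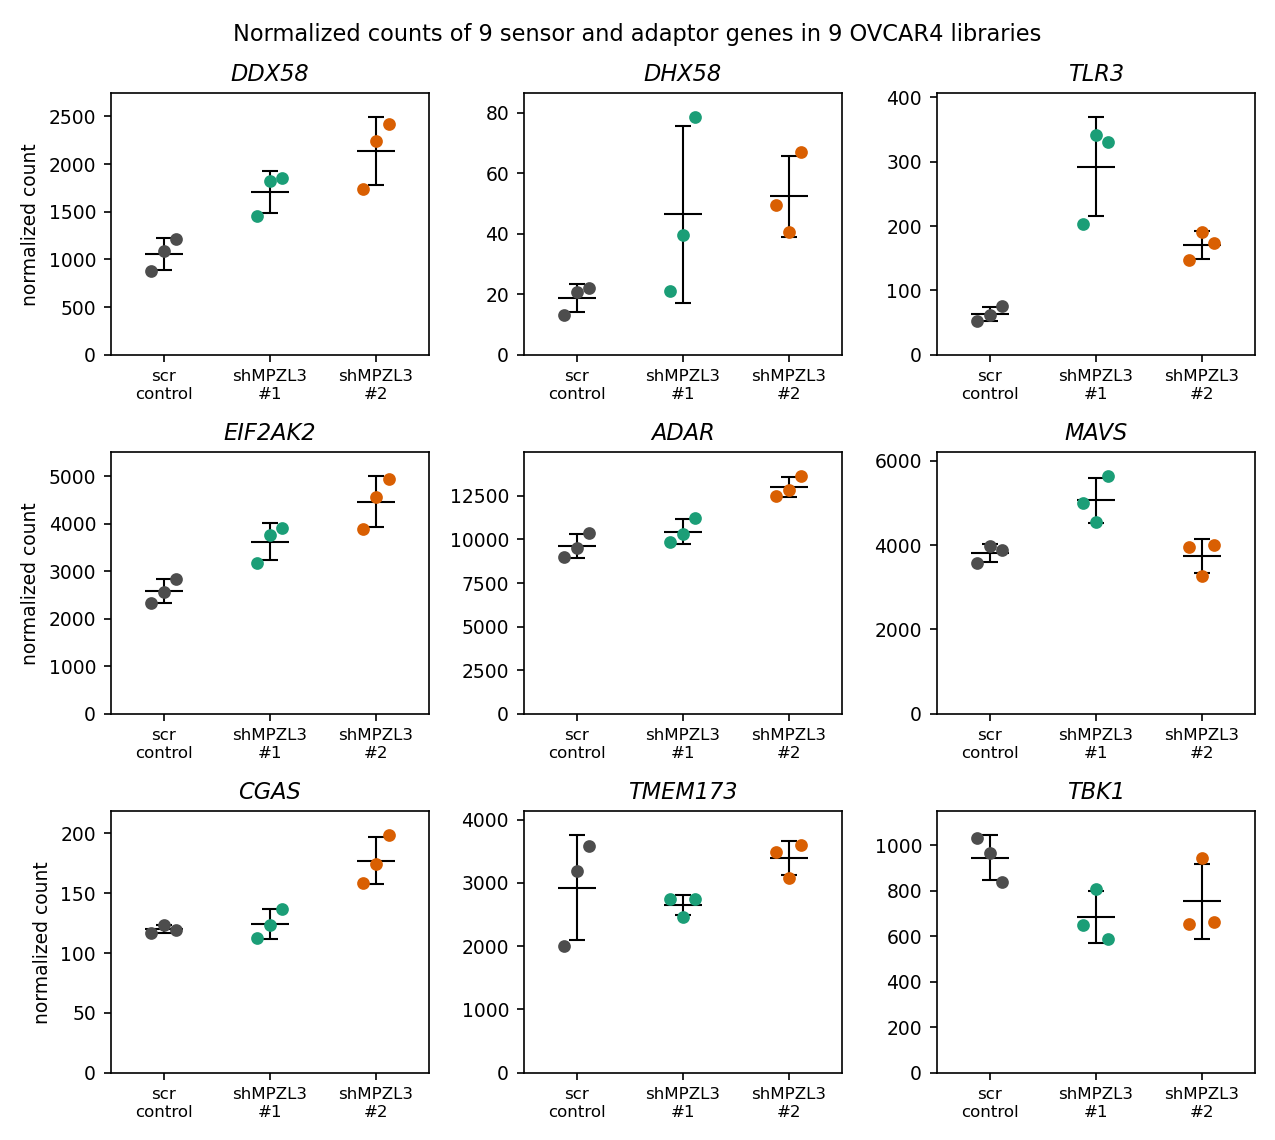
Normalized counts (vertical axes, from 0) of the 9 tested members in each of the 9 libraries; coloured points are libraries, the long dash is the group mean and the bars are 1 SD (n = 3 per group). In DDX58, EIF2AK2 and TLR3 all 6 knockdown libraries lie above all 3 controls, whereas in TMEM173 the controls span 1997 to 3591.

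DDX58 encodes RIG-I, the helicase that binds short double-stranded RNA carrying a 5′-triphosphate. The gene (ENSG00000107201) lies at chr9:32455705-32526324 on the minus strand (GRCh38), and no other gene of the table overlaps it. Its normalized counts were 874, 1086 and 1211 in the scr control. They were 1455, 1819 and 1852 in shMPZL3 #1 and 1740, 2245 and 2424 in shMPZL3 #2. The lowest knockdown library was thus above the highest control. DDX58 was 1.82-fold higher in the grouped knockdown (log2 0.86, SE 0.16, edgeR adjusted p = 0.00382), and the 95% interval of the fold ran from 1.44 to 2.30. An exact permutation test of log2 CPM, two-sided, gave p = 0.0119, the smallest that 6 libraries against 3 allow. The call was kept under all 15 alternative settings.

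DHX58 encodes LGP2, which lacks the signalling domains of its relatives and modulates them. It lies at chr17:42101404-42112733 on the minus strand (ENSG00000108771) and was the lowest of the tested members. The counts themselves were 10, 22 and 16 in the scr control, 23, 40 and 83 in shMPZL3 #1, and 49, 40 and 89 in shMPZL3 #2. Scaled to the average library, shMPZL3 #1 replicate 1 (21.1) lay below the highest control (22.0), so the groups overlapped by this library. The other 5 knockdown libraries were above the controls, at 39.7 to 78.5. The grouped difference was 2.63-fold (log2 1.39, SE 0.41, edgeR adjusted p = 0.0355), with an interval from 1.43 to 4.83. The call was lost in 5 of 15 alternatives, each of which left out 1 library: any of the 3 controls, shMPZL3 #1 replicate 3 or shMPZL3 #2 replicate 3. The adjusted p rose to as much as 0.169 among them.

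TLR3, the endosomal receptor for double-stranded RNA, had the largest fold of the members. It lies at chr4:186069152-186088069 on the plus strand (ENSG00000164342). Normalized counts were 53.2, 61.3 and 75.6 in the scr control. They were 203, 342 and 331 in shMPZL3 #1 and 148, 191 and 174 in shMPZL3 #2. The 3 groups did not overlap, with shMPZL3 #2 between the others. TLR3 was 3.65-fold higher in the grouped knockdown (log2 1.87, SE 0.30, edgeR adjusted p = 0.00174). This call, too, was kept under all 15 alternatives, where the log2 fold change ranged from 1.72 to 2.00. The direct comparison of both shRNAs, fitted to all 3 groups, placed TLR3 lower in shMPZL3 #2 than in shMPZL3 #1 by log2 -0.77 (SE 0.20, edgeR adjusted p = 0.0154). That difference was not called without shMPZL3 #1 replicate 2, shMPZL3 #1 replicate 3 or shMPZL3 #2 replicate 1, with an adjusted p of up to 0.0693. Fibroblast marker sums were also higher in shMPZL3 #1 than in shMPZL3 #2, and their part in the TLR3 difference was not tested.

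EIF2AK2 encodes PKR, a kinase that, once bound to double-stranded RNA, phosphorylates eIF2alpha and slows translation. The gene (ENSG00000055332) occupies chr2:37099210-37157065 on the minus strand. On the other strand it shares 401 exonic bases, 3.73% of its exonic length, with the pseudogene AC007899.1, which had 7 counts in all, and 35 bases with GPATCH11. The libraries were not made to keep strand. Normalized counts were 2331, 2576 and 2843 in the scr control. They were 3185, 3773 and 3916 in shMPZL3 #1 and 3891, 4570 and 4948 in shMPZL3 #2. Every knockdown library exceeded every control, as for DDX58, although by a smaller factor. The grouped fold was 1.57 (log2 0.65, SE 0.13, edgeR adjusted p = 0.00737), with an interval from 1.28 to 1.91, and the exact permutation p was 0.0119. Without scr control replicate 1, the lowest of the 3 controls, the adjusted p was 0.0664 and EIF2AK2 was not called.

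ADAR converts adenosine to inosine in double-stranded RNA, which keeps the cell's own transcripts from activating MDA5 and PKR. It was the most abundant member, at chr1:154582057-154628013 on the minus strand (ENSG00000160710). The table gives 1 count per gene, so its interferon-inducible long isoform and its constitutive short isoform could not be told apart. Normalized counts were 9016, 9513 and 10375 in the scr control, 9829, 10285 and 11221 in shMPZL3 #1, and 12495, 12853 and 13623 in shMPZL3 #2. The shMPZL3 #1 libraries overlapped the controls, whereas the 3 shMPZL3 #2 libraries were above all others. The grouped difference (log2 0.28, SE 0.12) was not called (edgeR adjusted p = 0.118). Against the scr control, ADAR was 1.35-fold higher in shMPZL3 #2 (log2 0.43, SE 0.09, edgeR adjusted p = 0.00531). In shMPZL3 #1 its log2 fold change was 0.12, with an interval from -0.08 to 0.32. The difference between the shRNAs was log2 0.31 (SE 0.09, edgeR adjusted p = 0.0327). It was not called in 8 of 16 alternatives, of which 7 left out 1 library and 1 fitted these 2 groups alone.

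ZBP1, a sensor of left-handed (Z-form) nucleic acid that can start necroptosis, was not detected at this depth. It had 1 count in scr control replicate 3 and 0 counts in each of the other 8 libraries. A count of 0 allows up to 3 counts, or 0.110 to 0.201 CPM over these libraries, for counting error only. RIPK3, MLKL, CASP8 and CASP6 were listed as cell death genes downstream of ZBP1, and not all of them carry out necroptosis. Of these, 0 of 4 were called in the grouped knockdown by edgeR or DESeq2. There, 0 of 4 reached an unadjusted p below 0.05, and CASP8 was the closest to no change (log2 0.01).

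MAVS, the mitochondrial adaptor that RIG-I and MDA5 share, moved under 1 shRNA and not under the other. It lies at chr20:3846799-3876123 on the plus strand (ENSG00000088888). Normalized counts were 3579, 3976 and 3884 in the scr control, 4994, 4552 and 5633 in shMPZL3 #1, and 3945, 3274 and 3998 in shMPZL3 #2. All 3 shMPZL3 #1 libraries lay above all others, and the shMPZL3 #2 libraries surrounded the controls. MAVS was 1.33-fold higher in shMPZL3 #1 (log2 0.41, SE 0.11, edgeR adjusted p = 0.00812), a call that did not hold once scr control replicate 1 was left out (adjusted p = 0.0512). In shMPZL3 #2 the log2 fold change was -0.03, with an interval from -0.25 to 0.20. The direct comparison of the shRNAs gave log2 -0.44 (SE 0.11, edgeR adjusted p = 0.0114), and the only alternative in which it was not called left out shMPZL3 #1 replicate 3 (adjusted p = 0.0521).

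CGAS synthesizes the second messenger cGAMP on double-stranded DNA. It lies at chr6:73413515-73452276 on the minus strand (ENSG00000164430) and shares 180 exonic bases with DDX43 on the other strand, a gene with 5 counts in all. Normalized counts of CGAS were 117, 124 and 120 in the scr control, 113, 123 and 137 in shMPZL3 #1, and 159, 174 and 198 in shMPZL3 #2. The controls and shMPZL3 #1 overlapped, and shMPZL3 #2 stood above both. CGAS was 1.48-fold higher in shMPZL3 #2 than in the scr control (log2 0.56, SE 0.17, edgeR adjusted p = 0.0352), a call lost in 6 of 16 alternatives: without the low-count filter, without any of the 3 controls, and without shMPZL3 #2 replicate 2 or replicate 3. The difference between the shRNAs (log2 0.51, SE 0.17, edgeR adjusted p = 0.049) was called in 2 of 16 alternatives. The grouped log2 fold change was 0.33, with an interval from -0.09 to 0.75.

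TMEM173 encodes STING, the receptor of cGAMP on the endoplasmic reticulum. At chr5:139475534-139482935 on the minus strand (ENSG00000184584), it was the second most abundant member in the scr control per unit of gene length. Normalized counts were 1997, 3187 and 3591 in the scr control, 2742, 2468 and 2742 in shMPZL3 #1, and 3495, 3083 and 3596 in shMPZL3 #2. The scr control replicate 1 was far below the other 2 controls, and the controls spanned most of the knockdown libraries. No comparison with the scr control was called for TMEM173 in all libraries (grouped log2 0.05, interval -0.32 to 0.41). Without scr control replicate 1 the grouped value turned to -0.17 and was not called, while shMPZL3 #1 became lower than the remaining controls (log2 -0.36, edgeR adjusted p = 0.0337). The 3 shMPZL3 #2 libraries were above the 3 shMPZL3 #1 libraries, a difference of log2 0.36 that was not called in all libraries (edgeR adjusted p = 0.131). It was called without scr control replicate 1 (adjusted p = 0.0307) and without the low-count filter (0.0201).

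TBK1, the kinase on which both routes converge, was the only tested member with a negative value under both shRNAs. It lies at chr12:64451880-64502108 on the plus strand (ENSG00000183735), where an antisense gene with 9 counts in all covers 14.7% of its exonic bases. Normalized counts were 1030, 967 and 839 in the scr control, 650, 809 and 589 in shMPZL3 #1, and 653, 941 and 663 in shMPZL3 #2. The shMPZL3 #1 libraries were all below the controls, whereas shMPZL3 #2 replicate 2 lay within them. TBK1 was lower in shMPZL3 #1, at 0.722 times the scr control (log2 -0.47, SE 0.15, edgeR adjusted p = 0.0241), a call lost in 4 of 16 alternatives, without scr control replicate 1 or 2 or without shMPZL3 #1 replicate 1 or 3. The value in shMPZL3 #2 was log2 -0.33 (edgeR adjusted p = 0.149) and in the grouped knockdown -0.40 (adjusted p = 0.0698). The grouped difference became a call with DESeq2, with no filter on low counts and without shMPZL3 #2 replicate 2, with an adjusted p down to 0.0151 over the alternatives. Without shMPZL3 #2 replicate 2 the value in shMPZL3 #2 was log2 -0.53 and was called (edgeR adjusted p = 0.0142).

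Taking each shRNA on its own against the same controls, 5 of 9 members rose and 1 fell in shMPZL3 #1, where 16.8% of all genes were called higher and 15.3% lower. In shMPZL3 #2, 6 of 9 rose and 0 fell, against 9.36% and 5.8% of all genes; at an unadjusted p below 0.05, TBK1 alone was lower, and DESeq2 called 0 lower. DDX58, DHX58, EIF2AK2 and TLR3 were called higher in both. The DHX58 calls were lost in 4 of 16 alternatives for shMPZL3 #1 and in 5 of 16 for shMPZL3 #2, each leaving out 1 library. Without shMPZL3 #1 replicate 3 its log2 fold change in shMPZL3 #1 went from 1.30 to 0.69 (edgeR adjusted p = 0.271). Both comparisons share the scr control, so they do not count as separate evidence. DDX58 was 1.62-fold higher in shMPZL3 #1 and 2.02-fold higher in shMPZL3 #2, and EIF2AK2 1.40-fold and 1.73-fold. The difference between shRNAs was log2 0.32 for DDX58 (interval 0.03 to 0.62, edgeR adjusted p = 0.129) and 0.30 for EIF2AK2 (interval 0.06 to 0.54, adjusted p = 0.0843), and neither was called in the fit without a block. In the direct comparison of the shRNAs, 4 of 9 members were called (ADAR and CGAS higher in shMPZL3 #2, TLR3 and MAVS lower), beside 15.1% of all genes in either direction.

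**Figure D2:**
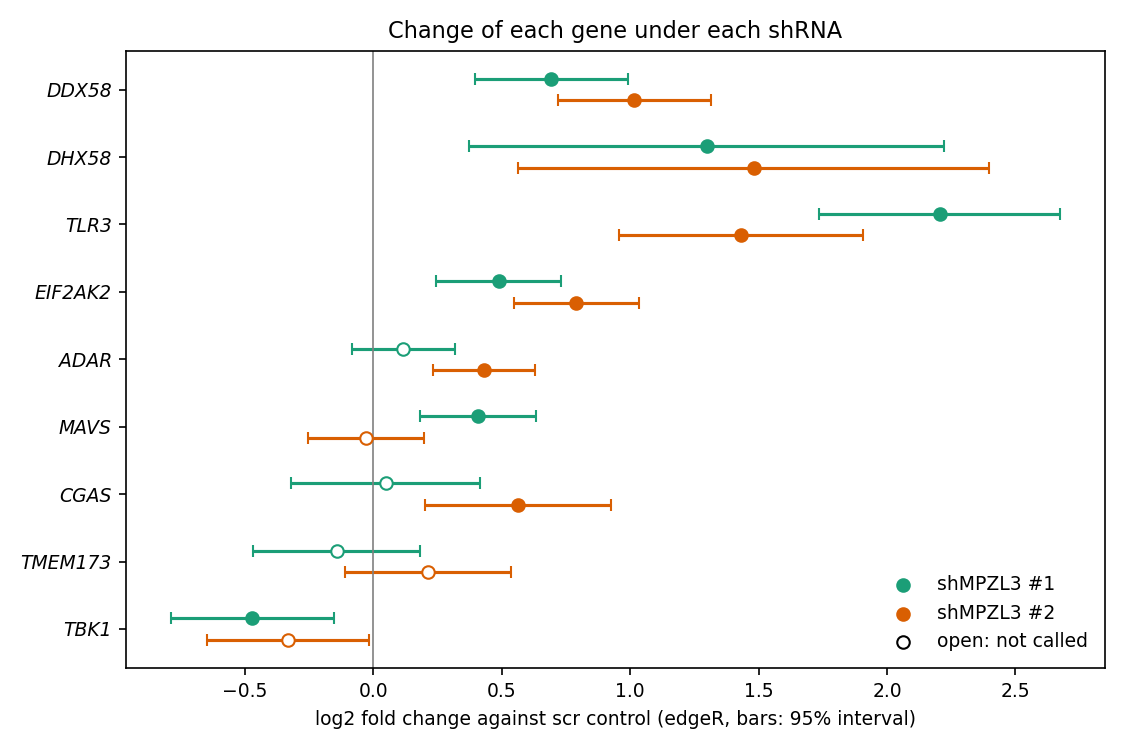
Log2 fold change of each tested member (horizontal axis) against the scr control in shMPZL3 #1 and shMPZL3 #2, with 95% intervals from edgeR; filled points are called and open points are not. DDX58, DHX58, TLR3 and EIF2AK2 are filled for both shRNAs, while MAVS and TBK1 are filled only for shMPZL3 #1 and ADAR and CGAS only for shMPZL3 #2.

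To compare the genes with each other, counts were divided by gene length and library size (CPM per kb of exons). The length covers all annotated exons of a gene and not the transcripts expressed, so the order between genes depends on the annotation. In the scr control ADAR was highest at 48.4 ± 3.45 (SD, n = 3), followed by TMEM173 at 37.0 ± 10.5, whose highest library (45.4) exceeded the lowest ADAR library (45.3) by less than either spread. MAVS (15.8 ± 0.86), DDX58 (11.8 ± 1.91), EIF2AK2 (11.7 ± 1.16) and TBK1 (9.67 ± 1.00) formed a middle range, in which the libraries of DDX58 overlapped those of EIF2AK2 and of TBK1. CGAS (1.41 ± 0.04), TLR3 (0.46 ± 0.08) and DHX58 (0.24 ± 0.06) were far lower and did not overlap each other. In shMPZL3 #2 the order changed in the middle: DDX58 (23.9 ± 3.97) and EIF2AK2 (20.2 ± 2.42) both exceeded MAVS (15.5 ± 1.67) in every library. Before division by length, normalized counts of DDX58 there (1740 to 2424) stayed below those of MAVS (3274 to 3998). The level of DDX58 relative to MAVS was 74.7% ± 9.20 in the scr control, 91.9% ± 14.9 in shMPZL3 #1 and 156% ± 33.7 in shMPZL3 #2. TLR3 reached 2.11 ± 0.56 in shMPZL3 #1, where CGAS was at 1.46 ± 0.14, and their libraries overlapped.

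**Figure D3:**
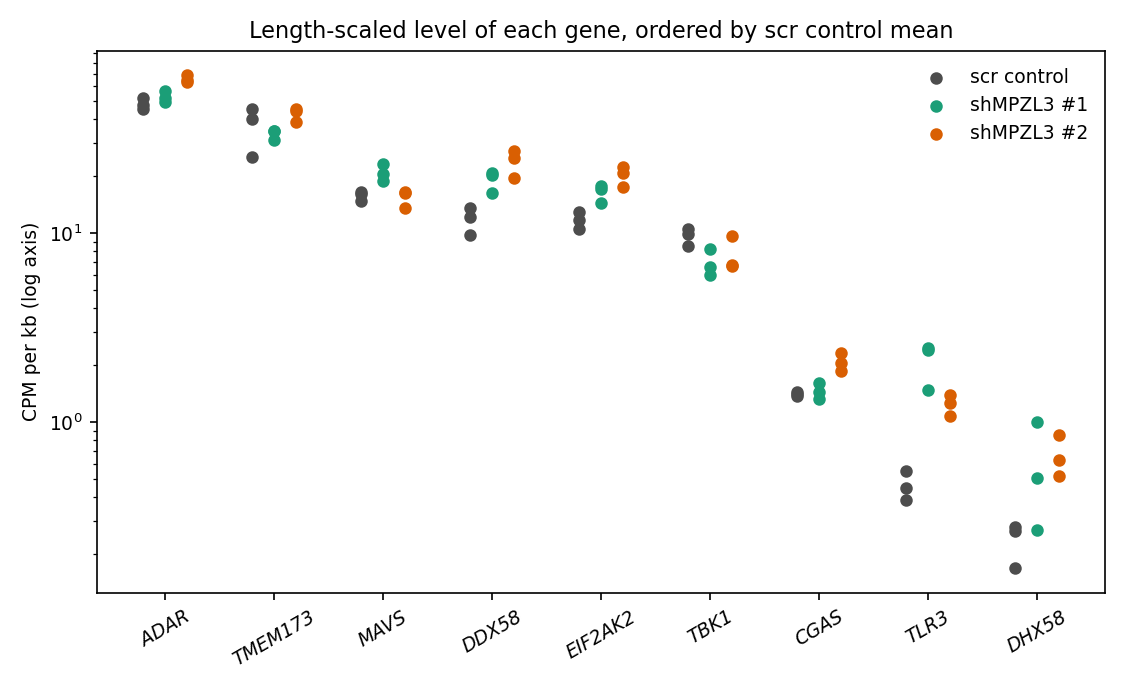
CPM per kb (log axis) of the 9 tested members, ordered by their scr control mean; each point is a library, coloured by group. ADAR and TMEM173 lie at the top in the scr control, and TLR3 and DHX58, at 0.46 and 0.24, at the bottom.

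The gene that moved most around these members was IFIH1, which encodes MDA5, the helicase for long double-stranded RNA. Its normalized counts were 104, 158 and 261 in the scr control, 765, 1093 and 1462 in shMPZL3 #1, and 904, 1201 and 1192 in shMPZL3 #2. All 6 knockdown libraries were far above the controls, a 6.34-fold difference (log2 2.67, SE 0.27, edgeR adjusted p = 0.00011). Per unit of length, IFIH1 stood at 13.6% ± 4.26 of DDX58 in the scr control, at 54.4% ± 11.6 in shMPZL3 #1 and at 43.9% ± 1.87 in shMPZL3 #2. The ratio of EIF2AK2 to ADAR, the kinase and the editor of double-stranded RNA, was 24.1% ± 0.74 in the scr control, 31.2% ± 1.94 in shMPZL3 #1 and 30.9% ± 2.52 in shMPZL3 #2. In each of these ratios the knockdown libraries lay above the controls. The libraries overlapped in the other ratios computed: DDX58 to MAVS, DHX58 to DDX58, CGAS to TMEM173 and TBK1 to MAVS. The share of all gene pairs that separate in this way was not counted.

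Beyond the members, 109 genes of the same pathways were grouped by role, of which 86 could be tested. These lists, too, were chosen with earlier results known, so their shares are a description. In the grouped knockdown 23 rose, 10 fell and 53 were not called, where 9.36% of all genes were called higher and 6.4% lower. The median log2 fold change of the 86 was 0.13, beside 0.02 over all genes. The count fell to 14 without scr control replicate 1, to 17 without replicate 2 and to 18 without replicate 3. Calls over all genes fell with it, from 1584 higher and 1083 lower to 453 and 172 without scr control replicate 1. Where a role had 5 or fewer calls in a direction, the genes named below beyond the rule for named genes were chosen after their values were seen.

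Among 14 RNA-sensing helicases and cofactors, 5 rose and 4 fell. The risers were IFIH1, DDX60 (log2 2.12), DDX60L (1.91), and 2 E3 ligases that act on RIG-I, RNF135 (0.59) and TRIM25 (0.57). The genes that fell were HMGB1 (-0.75), DHX15 (-0.52), DHX9 (-0.46) and DDX3X (-0.35), which also serve chromatin, splicing or translation. LRRFIP2 was closest to no change (0.12). Of 14 tested genes of DNA sensing and cGAMP handling, 2 rose, IFI16 (1.96), a nuclear DNA sensor, and TRIM56 (0.36). The 4 that fell were PRKDC (-0.50), XRCC5 (-0.47), XRCC6 (-0.42) and MRE11 (-0.40), all of which act in repair of DNA breaks. DDX41 was at -0.01. AIM2 had 5 counts in shMPZL3 #2 replicate 3 and 0 counts in the other 8 libraries.

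Of 7 genes of the endosomal Toll-like receptor route, TLR7, TLR8 and TLR9 had at most 7 counts in any library and were not tested. The other 4 rose: CD14 (log2 1.60), TICAM1 (0.86), MYD88 (0.71) and UNC93B1 (0.62). TICAM1 encodes TRIF, the adaptor through which TLR3 signals, and UNC93B1 carries the endosomal receptors out of the endoplasmic reticulum. TICAM1 had normalized counts of 342 to 434 in the scr control, 609 to 867 in shMPZL3 #1 and 584 to 806 in shMPZL3 #2. CD14, a co-receptor that also marks monocytes, had 3 to 12 counts in the scr control and 19 to 34 in the knockdown libraries. UNC93B1 was not called without scr control replicate 1 (edgeR adjusted p = 0.0525), nor was CD14 without scr control replicate 1 or 3 (up to 0.131).

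Of 20 genes of the kinase and ubiquitin relay, 3 rose and 0 fell, namely IRF7 (1.89), TRADD (0.81) and OPTN (0.74). The 15% called in this role was near the share over all genes (9.36% higher and 6.4% lower). DESeq2 also called 0 lower, and 1 was lower at an unadjusted p below 0.05 in edgeR. IRF3, the constitutive factor that TBK1 phosphorylates, was not called (log2 0.10, SE 0.11, edgeR adjusted p = 0.572), and TRAF6 was at 0.01. IRF7, its interferon-inducible relative, had normalized counts of 97.1, 155 and 166 in the scr control, 241, 211 and 470 in shMPZL3 #1, and 642, 582 and 952 in shMPZL3 #2. The 3 groups did not overlap. IRF7 was log2 1.24 higher in shMPZL3 #2 than in shMPZL3 #1 (SE 0.26, edgeR adjusted p = 0.00377), and its grouped call (adjusted p = 0.0119) did not hold when scr control replicate 1 was left out (0.0857).

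Of 10 tested negative regulators, 5 rose and 0 fell: USP18 (1.12), which restrains the interferon receptor, NLRC5 (0.87), TNFAIP3 (0.79), CYLD (0.61) and NLRX1 (0.49). DESeq2 also called 0 lower, and 2 were lower at an unadjusted p below 0.05 in edgeR. RNF125, a ligase that marks RIG-I for degradation, was at -0.01. Among 9 kinases of eIF2alpha and partners of PKR, PPP1R15A (0.77), the phosphatase subunit that reverses eIF2alpha phosphorylation, and EIF2AK3 (0.45), the stress kinase PERK, rose. EIF2S1 (-0.37), which encodes eIF2alpha itself, fell, and TARBP2 was at -0.07. Among the genes of nucleic acid clearance, SAMHD1 (1.01) rose and RNASEH2B (-0.38) fell, with DNASE2 at 0.07. TREX1, the main cytosolic DNA exonuclease, had 0 counts in all 9 libraries. All of its 1515 exonic bases lie within exons of ATRIP on the same strand, so its RNA could not be counted apart. The editor ADARB1 was not called (0.19), and ADARB2, ADAD1 and ADAD2 were not tested.

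**Figure D4:**
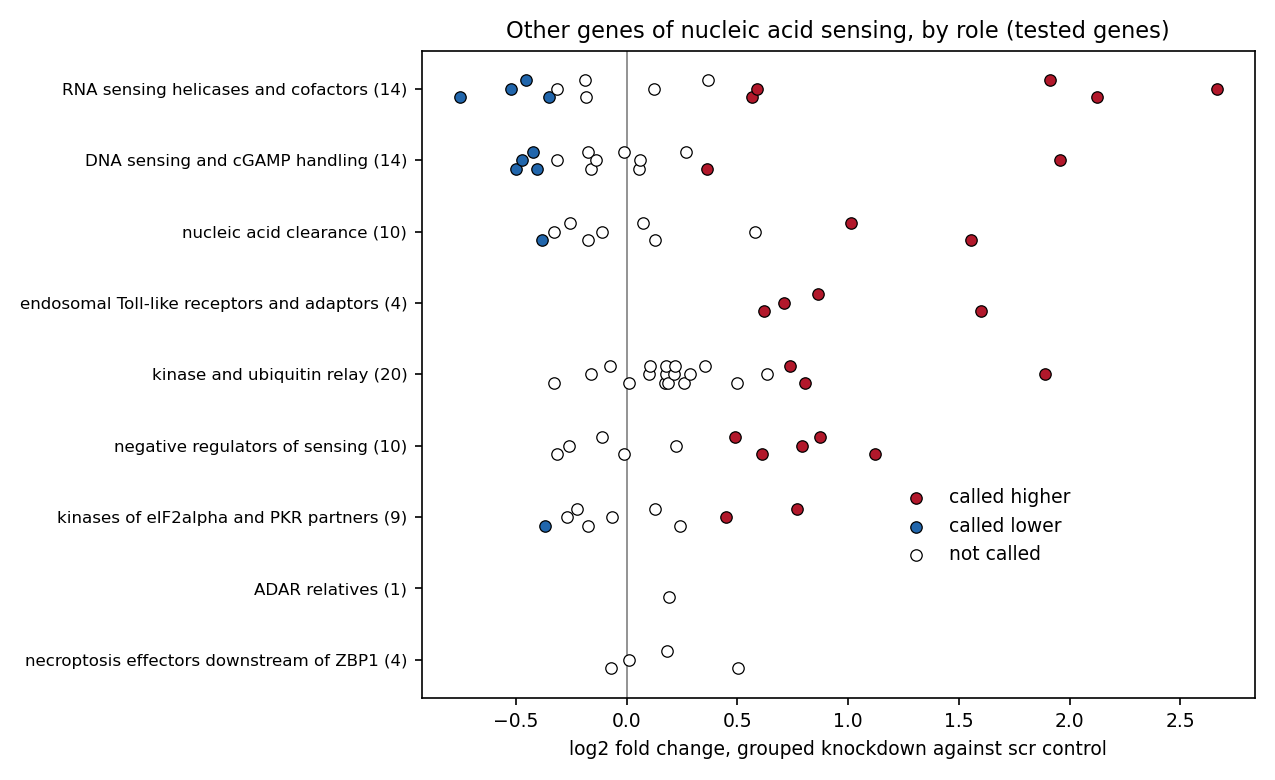
Log2 fold change (horizontal axis) in the grouped knockdown of the 86 tested pathway genes, 1 point per gene, by role, with the number tested in brackets; red points are called higher, blue lower and white not called. IFIH1 is the point farthest right at 2.67, and all 4 tested genes of the endosomal Toll-like receptor route are red.

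None of the 12 interferon genes examined was measured well enough to test. IFNB1 had 1 count in shMPZL3 #1 replicate 1 and 0 elsewhere, and IFNA1, IFNA2, IFNA5, IFNA8 and IFNG had 0 counts in all libraries. IFNL1, IFNL2 and IFNL3, the type III interferons, had 0 counts in every control and at most 5 in any knockdown library. IFNE had 2 to 16. IFNK and IFNW1 had at most 4. Interferon RNA was thus at or near the detection limit of 3 counts in the controls and in the knockdown libraries, IFNE excepted.

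The genes whose profile over the 9 libraries was closest to each member were sought among 11907 protein-coding genes, by the root mean square difference of centred log2 CPM. For DDX58 these were ST3GAL1 (0.11), SLFN5, USP2, TAP2 and BCAR3 (0.13), where the SD of DDX58 over the libraries was 0.46. For EIF2AK2 they were CDCP1 (0.09), STAT2, LAP3, PRKCH and FRMD5. For TLR3 they were VIM (0.14), COL8A1, TMEM86A, BTN3A2 and ZNF471, and for DHX58 MYL7 (0.26), ISG20, PARP12, HELZ2 and GADD45A. ADAR was nearest to CHMP4B (0.06), PPME1, PLEKHA2, WDR45 and TNFRSF10B. The nearest genes to MAVS were PHLDB1 (0.05), PTK7, PEX26, LAMB2 and DGCR6L, those to CGAS were OTUD1 (0.07), MTMR14, SLC3A2, PARP6 and PHLDB2, and those to TBK1 were PPP2CA (0.05), ARMT1, SLC25A40, GMFB and PPP6R3. TMEM173 had no profile as close, relative to its SD of 0.27, with ZNF688 (0.11), PAQR4, AGMAT, ZNF503 and TINAGL1. Within the members, ADAR and CGAS were the closest pair (0.10), followed by DDX58 and EIF2AK2 (0.12). These distances rest on 9 libraries in 3 groups and are given as a description.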

How the data were processed

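RNA from 9 OVCAR4 libraries was sequenced from non-directional poly-A libraries. The authors deposited raw gene counts. The submitters' processing notes name HISAT2 2.0.5, featureCounts 1.5.0-p3 and hg38. The annotation release is not given in the sources used here, but all 58735 genes had the ID, name, position and strand of GENCODE v29.

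The deposited counts were tested with edgeR 4.0.16 in R 4.3.3 (TMM, filterByExpr, quasi-likelihood test). The grouped test compared 6 knockdown with 3 control libraries, and the shRNA tests fitted all 3 groups. P-values were adjusted by Benjamini-Hochberg over 16928 genes and called below 0.05, and the scripts were tested on simulated data. SEs are the log2 fold change divided by the square root of F, and intervals are 95%. DESeq2 1.42.0, RLE and upper-quartile scaling, other filters, a replicate block, fits of 2 groups and leaving out each library were tried as alternatives. The labels name separate replicates, which the study's methods call biological. P-values set a difference against the spread between these samples, which in the grouped test includes the difference between both shRNAs. Samples were grouped by their labels. Library totals limit the precision, and floors (3 counts) cover counting error only.

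The members and gene lists were chosen with earlier results of these data known. The rule for named genes took all 10 members, MPZL3, per role the called gene with the largest and the tested gene with the smallest change, IFIH1, IRF3, IRF7, the interferon genes, and the 5 protein-coding genes (average log2 CPM of at least 1) nearest to each member. A gene that the rule names is not reported here. Figures and sequence searches used Python 3.11.15 and matplotlib 3.10.9.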

Additional observations from a re-analysis of the deposited data

Results flagged for a closer look

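The effect of 4 members differed between the shRNAs in the direct edgeR comparison (shMPZL3 #2 minus shMPZL3 #1, log2 scale). Over all genes, 15.1% were called there in either direction. ADAR differed by 0.31 (adjusted p = 0.0327) and CGAS by 0.51 (adjusted p = 0.049), both higher in shMPZL3 #2, and in both genes all 3 shMPZL3 #2 libraries lay above all 3 shMPZL3 #1 libraries. TLR3 differed by -0.77 (adjusted p = 0.0154) and MAVS by -0.44 (adjusted p = 0.0114), both lower in shMPZL3 #2 with no overlap of the libraries. The share of all genes whose libraries do not overlap between the shRNAs was not counted. Over 16 alternatives the adjusted p ranged from 0.00664 to 0.155 for ADAR, from 0.0326 to 0.205 for CGAS, from 0.00112 to 0.0693 for TLR3 and from 0.0014 to 0.0521 for MAVS. MPZL3 RNA was also higher in shMPZL3 #2, and its part in these differences was not tested. Among the 6 knockdown libraries, no library's value of a tested member lay beyond Dixon's 95% critical value. That test pooled both shRNAs, and a difference between them widens the range. It could therefore miss an outlying library within 1 shRNA, and the controls were not part of it.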

How the results depend on the processing

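No called log2 fold change changed sign in these alternatives: of 821 recomputed gene values, 63 lost a call, 12 gained one and 746 kept their side of the threshold. Leaving out 1 library at a time gave 2 to 5 members called in the grouped knockdown (4 in all libraries). It gave 4 to 6 for shMPZL3 #1, 4 to 6 for shMPZL3 #2, and 1 to 4 for shMPZL3 #2 against shMPZL3 #1. The pathway genes called were 14 to 36 (33 in all libraries). Over all genes these fits called 453 to 1771 higher and 172 to 1466 lower in the grouped knockdown. They called 1994 to 3039 higher and 1688 to 2788 lower for shMPZL3 #1. For shMPZL3 #2 the ranges were 910 to 1687 and 359 to 1452, and between the shRNAs 656 to 1589 and 801 to 1378. The fit of the 2 shRNA groups alone called 2 members between the shRNAs (4 in the fit of 3 groups). Over all genes, that fit called 855 higher and 1045 lower. The causes were not tested.

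With the replicate block, 7 members were called between the shRNAs and 5 in the grouped knockdown. Over all 16928 genes, the block called 2015 higher and 1808 lower between the shRNAs (1279 and 1280 without it). In the grouped knockdown it called 1434 higher and 990 lower (1584 and 1083 without it). DDX58 (adjusted p = 0.0104), EIF2AK2 (0.011) and TMEM173 (0.0449) were added between the shRNAs, and TBK1 was added as lower in the grouped knockdown (0.0358) and in shMPZL3 #2 (0.0284), all in edgeR. Correlations of deviations between same-numbered libraries were -0.00143 to 0.218, with 3 of 9 over 0.1. Between differently numbered libraries they were -0.147 to 0.0671, with 0 of 18 over 0.1. In addition, 8 of 9 libraries correlated best with one of their own number. Normalized counts of DDX58, EIF2AK2 and ADAR also rose from replicate 1 to 2 to 3 within each group, which no other tested member did. The labels number the replicates but do not say whether equal numbers were handled together. This hint of pairing thus comes from the data, so the replicate numbers are not taken as pairs and the main tests ignore it. DHX58 had 10 to 22 counts in the controls, which limits its precision, and its normalized counts varied by a CV of 63.1% in shMPZL3 #1.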
